A study of Homo sapiens with 8 samples.

Results

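The genes described here are 9 keratins (KRT5, KRT7, KRT8, KRT14, KRT15, KRT17, KRT18, KRT19 and KRT23) and the transcription factor gene TP63. They were chosen by name, as 10 of the 58780 genes in the deposited tables, and all 10 symbols matched a row. RNA was sequenced from H1, an established human embryonic stem cell line, at 4 stages of a stepwise differentiation in culture. Undifferentiated stem cells are called hESC. The germ layer stage, definitive endoderm, is called hDE, and it is followed by endoderm of the anterior foregut (hAFE) and of the pharyngeal foregut (hPFE). Each stage had 2 libraries, 8 in all. Every group came from this same line, and the labels give no genetic change and no dose or day for any stage. Per the labels, the submitters took hESC and hDE data from earlier work and made new libraries for hAFE and hPFE. In any comparison across that split, the stage and the origin of a library cannot be told apart. Nothing in the labels states that paired libraries are separate cultures, and p-values therefore cover the spread between 2 libraries that may be technical replicates.

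Keratins are the intermediate filament proteins of epithelial cells. A type I keratin pairs with a type II keratin to build the filament, so the genes are usually active in pairs. The simple keratins KRT8 (type II) and KRT18 (type I), with KRT19 and KRT7, are typical of single-layered epithelia, including the early embryo and the gut tube. KRT5 (type II) with KRT14 (type I), together with KRT15 and KRT17, mark the basal layer of stratified epithelia such as epidermis, oesophagus and airway. TP63 encodes p63, a transcription factor that is needed for stratified epithelia and is made from separate promoters as long (TA) and short (ΔN) forms. Filaments are tied to neighbouring cells at desmosomes and to the basement membrane at hemidesmosomes.

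The type II genes lie in a cluster on chromosome 12 and the type I genes in a cluster on chromosome 17, except KRT18, which sits beside its partner KRT8. On hg38 with GENCODE 29, KRT8 spans chr12:52897187-52949954 on the minus strand and KRT18 spans chr12:52948871-52952901 on the plus strand, and the annotated genes overlap by 1084 bases. The libraries kept strand, per the labels' protocols, but the sources used here do not give the strand setting of the counting. KRT7 lies at chr12:52232520-52252186, KRT15 at chr17:41513743-41522529 and KRT19 at chr17:41523617-41528308. TP63 spans chr3:189631416-189897279 on the plus strand.

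Promoter windows from 250 bases before to 50 after the start were found for 3 of the 10 genes in RefSeq (GRCh38.p14). The 2 windows below are shown because TP63 was nearly silent in the 2 earlier stages and detected in both later ones, and KRT5, the basal partner of KRT14, was nearly silent. The TP63 window is chr3:189631139-189631438 on the plus strand and the KRT5 window is chr12:52520345-52520644 on the minus strand. Capitals mark matches to CCAAT or to TATAAA on either strand.
TP63: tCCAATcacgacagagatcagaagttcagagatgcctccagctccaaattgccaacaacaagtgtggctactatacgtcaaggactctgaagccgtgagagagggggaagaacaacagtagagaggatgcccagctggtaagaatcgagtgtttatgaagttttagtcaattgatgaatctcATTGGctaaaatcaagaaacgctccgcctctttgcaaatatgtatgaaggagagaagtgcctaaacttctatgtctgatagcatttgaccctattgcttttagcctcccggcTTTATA
KRT5: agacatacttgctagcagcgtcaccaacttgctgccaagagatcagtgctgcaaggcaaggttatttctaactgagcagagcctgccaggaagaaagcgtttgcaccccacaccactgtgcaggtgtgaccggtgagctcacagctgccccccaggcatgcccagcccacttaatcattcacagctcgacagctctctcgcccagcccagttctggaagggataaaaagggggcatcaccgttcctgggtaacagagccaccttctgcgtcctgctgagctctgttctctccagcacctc
On both strands 8 motifs were searched: the TATA box as TATAAA, the CCAAT box as CCAAT, the GC box as GGGCGG, a forkhead motif as TGTTTAC, a SOX motif as AACAAAG, a TEAD motif as GGAATG, the AP-1 motif as TGANTCA and a TFAP2 motif as GCCNNNGGC. The TP63 window held CCAAT 2 times, a motif present in 34.6% of the 35116 RefSeq windows of that length. It held TATAAA, a motif present in 11.5%, only on the opposite strand and in its last bases. Those bases lie after the start, so the match is not placed as a TATA box would be. No exact match was found in the KRT5 window. That window holds gataaa before its start, which differs from TATAAA in the first letter, and inexact matches were not searched. Of 14 annotated TP63 transcripts, 4 started within 100 bases of the printed start and 8 started more than 10 kb downstream, up to 158.4 kb. The deposited counts are per gene, so they do not separate the long from the short forms.

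KRT8 has many processed copies in the genome, which a read from KRT8 can match closely. Over the alignable transcript, the 5 KRT8 copies compared were 90.6% to 97.1% identical to KRT8. KRT8 had 50 annotated pseudogenes, of which 26 had counts, and together they held 3.66% to 7.13% of the counts of KRT8 plus copies in each library. For KRT18 the share was 0.815% to 3.81% over 68 pseudogenes, with the highest value in hAFE replicate 2, and for KRT19 it was at most 0.0924%. The posterior standard deviation of the KRT8 count, the quantification program's own measure of how uncertainly reads were split, was at most 0.0152% of the count. With the copies' counts added to their parents, the log2 fold change of KRT8 between hDE and hESC was 2.83, against 2.87 without them.

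Total expected counts were 12687161 to 17802900 per library. Small structural and mitochondrial RNAs took 49.6% to 68% of the deposited TPM, so levels are compared across libraries in CPM (each count divided by the TMM-adjusted library size) and between genes in TPM (which also allows for transcript length). Stage identity was checked on marker lists. The 8 pluripotency genes summed to 4792 to 5452 CPM in hESC, 2788 to 3008 in hDE, 1163 to 1338 in hAFE and 248 to 311 in hPFE. Most of the hAFE sum was LIN28A and SOX2 (means of 1129 and 108 CPM), with POU5F1 at a mean of 0.418 CPM and NANOG at 0.106 CPM. Most of the hPFE sum was also LIN28A and SOX2 (means of 160 and 108 CPM). The 8 definitive endoderm genes summed to 3.78 to 4.47 CPM in hESC, 8667 to 9396 in hDE, 76.6 to 80.6 in hAFE and 39 to 76.1 in hPFE. Most of that hDE sum was CER1 (mean 7607 CPM). The 12 anterior foregut and pharyngeal genes summed to 133 to 134 CPM in hESC, 40.2 to 44.1 in hDE, 278 to 280 in hAFE and 291 to 382 in hPFE. Most of their hESC sum was SOX2 (mean 130 CPM). Within hAFE the 2 libraries were 83.8 fold apart in NKX2-3, 48.8 fold in HOXA3, 8.25 fold in TBX1 and 2.77 fold in SOX2. They were 1.16 fold apart in PAX9. The near-equal hAFE sums therefore do not show that the libraries were alike in single foregut genes. In bulk RNA, fewer cells of a type and less RNA per cell cannot be told apart.

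Keratin RNA in all 4 stages was almost wholly simple keratin. The summed TPM of KRT8, KRT18, KRT19 and KRT7 exceeded that of KRT5, KRT14, KRT15 and KRT17 by 1778 and 853 fold in the 2 hESC libraries, 3058 and 1958 fold in hDE, 1098 and 1326 fold in hAFE, and 1166 and 870 fold in hPFE. The simple sum was 495 to 548 CPM in hESC, 2326 to 2634 CPM in hDE, 1030 to 2299 CPM in hAFE and 1535 to 2258 CPM in hPFE. The basal sum was 0.36 to 0.396 CPM in hESC, 0.89 to 1.3 CPM in hDE, 1.39 to 2.58 CPM in hAFE and 2.31 to 2.61 CPM in hPFE. Every library of the 3 later stages lay above both hESC libraries in each sum. Both hDE libraries had a higher TPM ratio than the other 6, and the TPM ranges of hESC, hAFE and hPFE overlapped. As a ratio of CPM it was 1374 and 1386 in hESC, 2613 and 2021 in hDE, 892 and 741 in hAFE, and 588 and 978 in hPFE. On that scale both hESC libraries lay above every hAFE and hPFE library. The basal sum rests on 13 counts in hESC libraries, 28 counts in hDE, 58 counts in hAFE and 75 counts in hPFE, so the ratio moves with a few reads.

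**Figure D1:**
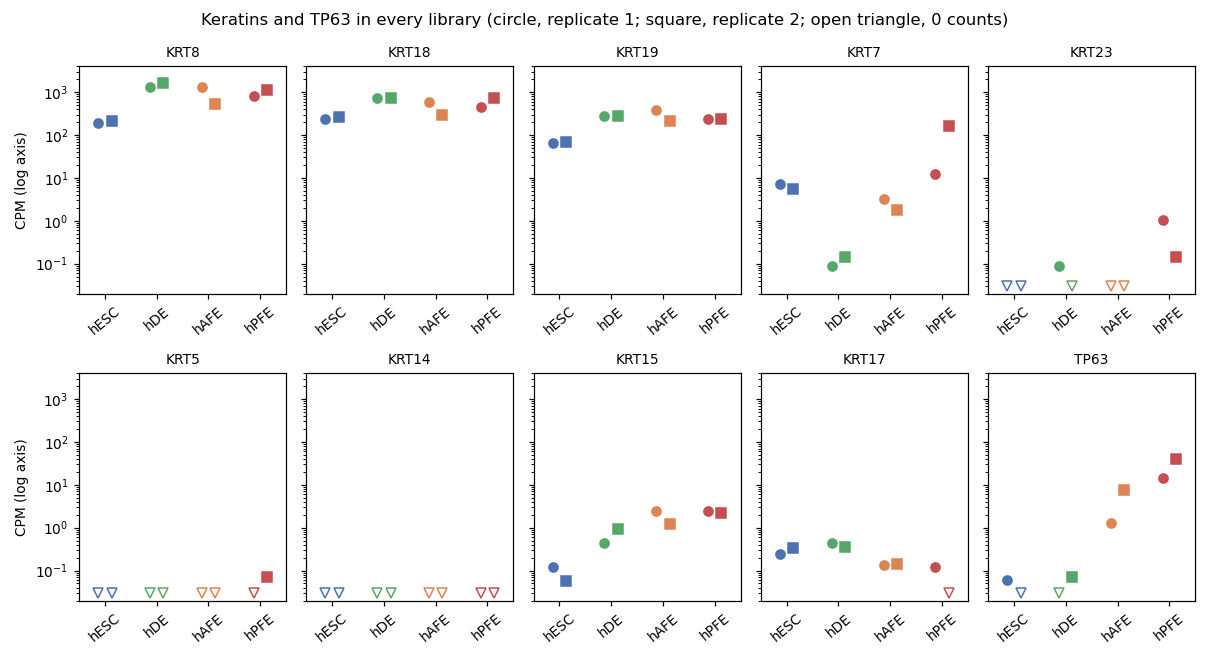
Level of each gene in CPM on a log axis in the 8 libraries by stage (circles replicate 1, squares replicate 2, open triangles at the bottom 0 counts). KRT8, KRT18 and KRT19 sit above 60 CPM in every library, KRT14 is at 0 in all 8, and TP63 and KRT7 are highest in hPFE replicate 2.

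Of the 10 genes, 6 passed the filter on low counts (KRT7, KRT8, KRT15, KRT18, KRT19 and TP63) and were tested with edgeR's quasi-likelihood test over 17446 genes, with Benjamini-Hochberg adjustment and a threshold of 0.05. In hDE against hESC 5 of the 6 passed, where 41.9% of all genes did, with 4 higher (20.3% of all genes) and KRT7 lower (21.6%). In hAFE against hDE only TP63 passed, as higher, where 30.2% of all genes did, 15.0% higher and 15.2% lower. In hPFE against hAFE only KRT7 passed, as higher, where 7.49% of all genes did, 4.77% higher and 2.71% lower. In hAFE against hESC 4 of the 6 passed, all higher, where 39.8% of all genes did, 19.2% higher and 20.6% lower. In hPFE against hESC all 6 were higher, where 45.0% of all genes passed, 21.6% higher and 23.3% lower. In hPFE against hDE 3 of the 6 were higher, where 33.6% of all genes passed, 16.6% higher and 17.0% lower. Comparisons that share a stage share its libraries, so these counts are not independent of each other. TP63, with 1 count in hESC and 1 in hDE, and KRT15, with 3 in hESC, passed the filter through later stages. KRT7, with 3 counts in hDE, passed it through the other stages. Against the stages with so few counts these genes could hardly be called lower, so part of these counts was set by the filter. The genes called in hPFE against hDE were KRT7, TP63 and KRT15, the last with 18 counts in hDE. Among the genes left out, KRT17 had 10 counts in hESC and 2 in hPFE, and KRT23 had 0 and 19. Between neighbouring stages, KRT8, KRT18, KRT19 and KRT15 passed at the step to hDE, TP63 at the step to hAFE, and KRT7 at the steps to hDE (lower) and to hPFE (higher).

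**Figure D2:**
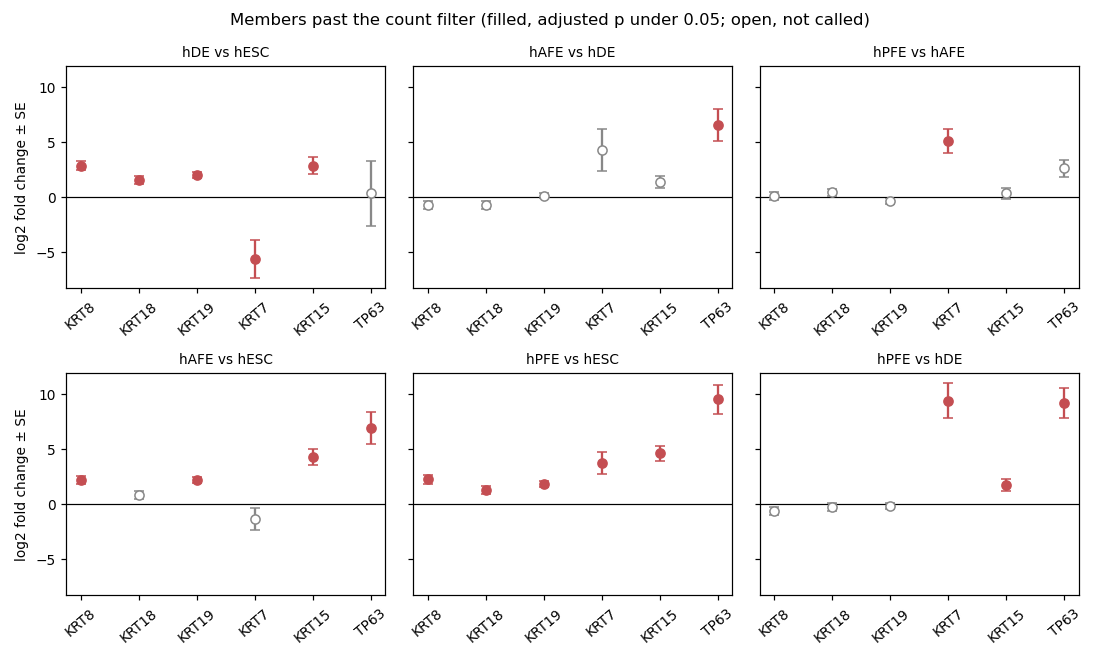
Log2 fold change (first-named stage over second) with its SE for the 6 genes past the count filter in the 6 comparisons. Filled red points have an adjusted p under 0.05 and open grey points do not, and KRT7 lies at -5.65 in hDE against hESC and at 9.41 in hPFE against hDE.

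KRT8, the type II keratin of simple epithelia, was the most abundant keratin after the stem cell stage. It stood at 189 and 215 CPM in hESC, 1335 and 1625 CPM in hDE, 1306 and 530 CPM in hAFE, and 830 and 1107 CPM in hPFE. All 6 later libraries were above both hESC libraries, while the hAFE and hPFE libraries overlapped. KRT8 was 7.31 fold higher in hDE than in hESC (log2 fold change 2.87, SE 0.399, adjusted p = 0.00129). It was also higher than hESC in hAFE (2.18, SE 0.389, adjusted p = 0.00445) and in hPFE (2.26, SE 0.39, adjusted p = 0.0032), and each of these 3 calls held under all 19 alternative settings. Among the later stages the log2 differences were -0.69 for hAFE against hDE (adjusted p = 0.202), 0.08 for hPFE against hAFE (adjusted p = 0.928) and -0.61 for hPFE against hDE (adjusted p = 0.244). The 2 hAFE libraries were 2.47 fold apart, and without hAFE replicate 1 the difference from hDE was -1.48 and passed (adjusted p = 0.00444). The lower level in hPFE than in hDE also passed when either hAFE library was left out (adjusted p = 0.0366 and 0.0365). On the deposited TPM scale the direction turned, with KRT8 at a mean of 278 TPM in hDE, 317 TPM in hAFE and 416 TPM in hPFE. The limma differences on log2(TPM + 1) were 0.05 for hAFE against hDE and 0.52 for hPFE against hDE (adjusted p = 0.942 and 0.357), where the median of all genes shifted by 0.50 and 0.68.

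KRT18, the type I partner of KRT8, had smaller fold changes than KRT8 over hESC. Its level was 233 and 259 CPM in hESC, 717 and 738 CPM in hDE, 596 and 288 CPM in hAFE, and 458 and 746 CPM in hPFE. The hDE libraries agreed closely, and the hAFE pair spanned a 2.07 fold range that reached near the hESC level without overlapping it. KRT18 was 2.96 fold higher in hDE than in hESC (log2 fold change 1.56, SE 0.349, adjusted p = 0.00971) and 2.45 fold higher in hPFE than in hESC (1.29, SE 0.346, adjusted p = 0.0187). In hAFE against hESC it did not pass (0.85, SE 0.343, adjusted p = 0.0842) and stood at 0.22 without hAFE replicate 1. In DESeq2 and with no count filter this comparison passed. It passed there without hAFE replicate 2 (1.28, adjusted p = 0.0104), and in hAFE against hDE it was lower without hAFE replicate 1 (-1.34, adjusted p = 0.0146). On log2(TPM + 1) the difference of hAFE against hDE was 0.08 and that of hPFE against hDE 0.85, and neither passed in limma (adjusted p = 0.899 and 0.144). The call in hDE was lost on log2(TPM + 1), where it stood at 1.01 (limma adjusted p = 0.138), and on the other 2 TPM settings (adjusted p = 0.111 and 0.298). It was also lost without hESC replicate 1, hESC replicate 2 or hDE replicate 2 (adjusted p = 0.0734, 0.0577 and 0.053), and that in hPFE without hESC replicate 1, hESC replicate 2 or hPFE replicate 2 (adjusted p = 0.111, 0.0845 and 0.0956) and on log2(TPM + 1) with no filter (limma adjusted p = 0.058).

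Per length, KRT18 was the more abundant of the pair only in the stem cells. The ratio of KRT18 to KRT8 TPM was 1.6 and 1.57 in hESC, 0.7 and 0.596 in hDE, 0.606 and 0.72 in hAFE, and 0.728 and 0.909 in hPFE. Both hESC libraries were above 1 and the other 6 were below it. KRT18 made up 50.5% and 50.7% of the summed TPM of the 9 keratins in hESC, and KRT8 31.5% and 32.4%. In hDE KRT8 made up 50.3% and 54.5% and KRT18 35.2% and 32.4%. Over all simple keratins, the ratio of type I (KRT18 and KRT19) to type II (KRT8 and KRT7) TPM was 1.91 in each hESC library, 0.988 and 0.835 in hDE, 1.03 and 1.28 in hAFE, and 1.09 and 0.898 in hPFE. In all 6 later libraries these sums of the 2 types were within 1.28 fold of each other. Since 2 libraries against 2 cannot reach a permutation p under 0.05, these ratios are given as a description.

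**Figure D3:**
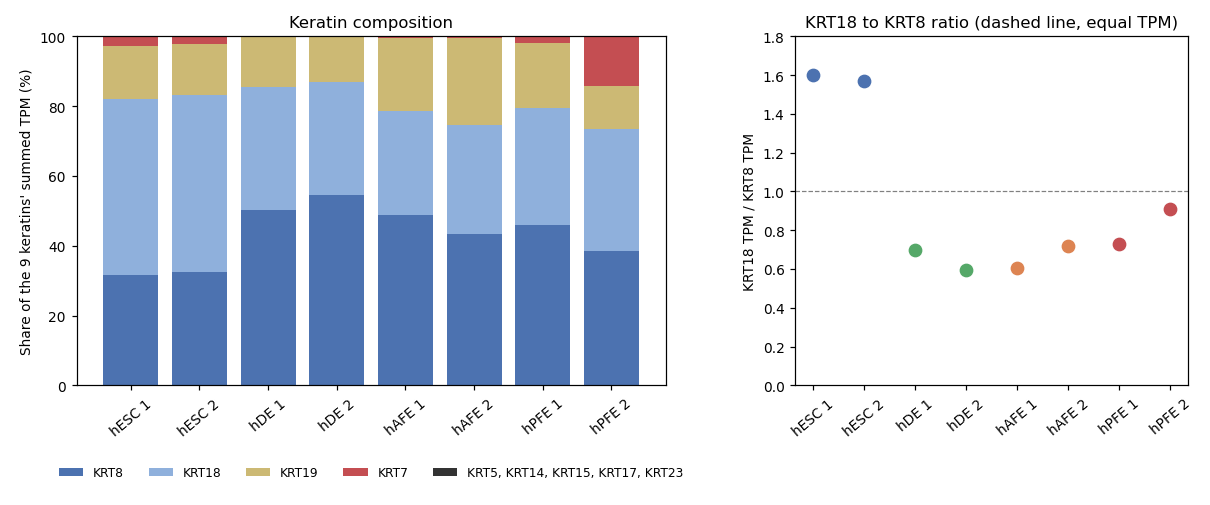
Left, share of the summed TPM of the 9 keratins (percent) held by KRT8, KRT18, KRT19, KRT7 and the other 5 together in each library. Right, ratio of KRT18 to KRT8 TPM per library with a dashed line at equal TPM; the hESC libraries lie at 1.6 and 1.57 and all others below 1, and KRT7 reaches 14.2% of keratin TPM in hPFE replicate 2.

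KRT19, the smallest type I keratin, followed KRT8 with tighter replicates. It stood at 64.9 and 68.6 CPM in hESC, 274 and 272 CPM in hDE, 394 and 210 CPM in hAFE, and 235 and 243 CPM in hPFE. All later libraries lay above hESC, and hAFE alone had libraries far apart. The rise over hESC was 4.08 fold in hDE (log2 fold change 2.03, SE 0.266, adjusted p = 0.00104), 4.52 fold in hAFE (2.18, SE 0.268, adjusted p = 0.00103) and 3.58 fold in hPFE (1.84, SE 0.265, adjusted p = 0.00154), each called under all 19 alternatives. Between the later stages the log2 differences ran from -0.34 to 0.15 and none passed. Without hAFE replicate 2 KRT19 was higher in hAFE than in hDE (0.53, adjusted p = 0.0397) and lower in hPFE than in hAFE (-0.73, adjusted p = 0.0324). On the deposited TPM scale KRT19 was instead higher in hPFE than in hDE (0.96 on log2(TPM + 1), limma adjusted p = 0.0381), a scale on which the median of all genes also shifted by 0.68 in that comparison. KRT19 held 12.3% to 24.9% of keratin TPM over the 8 libraries, with both hAFE libraries (21.1% and 24.9%) above all others.

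KRT7, a simple type II keratin of ducts, amnion, trophoblast and several foregut-derived linings, had a pattern of its own among the simple keratins. Its counts were 123 and 97 in hESC, 1 and 2 in hDE, 49 and 24 in hAFE, and 204 and 2243 in hPFE. As CPM these were 7.39 and 5.48, then 0.089 and 0.145, then 3.24 and 1.75, then 12.4 and 162. No 2 stages overlapped, but the 2 hPFE libraries differed 13.1 fold. KRT7 was lower in hDE than in hESC (log2 fold change -5.65, SE 1.73, adjusted p = 0.0324), and the ratio of counts, 0.0187, had a counting interval of 0.00383 to 0.0554. It was higher in hPFE than in hDE (9.41, SE 1.58, adjusted p = 0.00355, ratio of counts 673 with an interval of 230 to 3268), than in hAFE (5.11, SE 1.09, adjusted p = 0.0341) and than in hESC (3.76, SE 0.994, adjusted p = 0.0178). In hAFE against hDE it stood 4.30 higher and did not pass with all libraries (adjusted p = 0.132), but passed under 6 of the 19 alternatives. It passed in DESeq2, with no count filter, with only the 4 libraries compared and in limma on log2(TPM + 0.1). The others were the fits without hPFE replicate 1 or replicate 2, where all stages share the estimate of spread. In hAFE against hESC it stood at -1.35 (adjusted p = 0.329) and passed as lower under 4 of the 19 alternatives. These were no count filter, only the 4 libraries compared, and the fits without hPFE replicate 1 or replicate 2.

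The size of the KRT7 rise depended on the second hPFE library. Without it the log2 fold change was 6.59 against hDE (adjusted p = 0.000479), 2.29 against hAFE (adjusted p = 0.0214) and 0.93 against hESC (adjusted p = 0.108). The call against hAFE was also lost without either hESC, hDE or hAFE library in turn (adjusted p of 0.0775 to 0.0955), with a term for the replicate number (adjusted p = 0.0636), with only the 4 libraries compared (adjusted p = 0.171) and on the 3 TPM settings (limma adjusted p = 0.0999, 0.0703 and 0.237). The call of hDE against hESC was lost when any library of those 2 stages was left out (adjusted p of 0.0757 to 0.141) and on log2(TPM + 1), where it stood at -2.27 (limma adjusted p = 0.151, and 0.343 with no filter). The call of hPFE against hESC was lost without either hESC library (adjusted p = 0.09 and 0.116) and on log2(TPM + 1) with no filter (limma adjusted p = 0.133). KRT7 overlaps the annotated antisense gene KRT7-AS and the keratin gene KRT86, each with 3 counts over all 8 libraries. The deposited effective length of KRT7, an average over the transcripts that reads were assigned to, was 502 to 706 bases in every hESC, hAFE and hPFE library. The 14 annotated KRT7 transcripts run from 292 to 1754 bases, so part of its TPM came from reads given to short transcripts.

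Markers of amnion and trophoblast, which also express KRT7, were counted beside it. The 14 genes of that list summed to 16 and 13.4 CPM in hESC, 10.2 and 8.11 in hDE, 130 and 176 in hAFE, and 216 and 478 in hPFE, with replicate 2 above replicate 1 in hPFE, as for KRT7. In hAFE this sum was above hESC while KRT7 was below it, and replicate 2 had the higher sum but the lower KRT7 level. Of the 10 tested, 8 were higher in hPFE than in hESC and GABRP was lower, where 21.6% and 23.3% of all genes were, and 2 (HEY1 and VGLL1) were higher in hPFE than in hAFE, where 4.77% of all genes were. CGB5 and GCM1 were at 0 in hPFE, and CGA, a hormone subunit of trophoblast, stood at 0.0607 and 2.02 CPM there, against 4.56 and 69 CPM in hAFE. Of the hPFE sums, IGFBP3 gave 88.6 and 396 CPM and ISL1 gave 71.1 and 34.3 CPM. VGLL1 rose to 6.01 and 10.2 CPM in hPFE, against 0.264 and 0.0731 CPM in hAFE. ELF5 had 0 counts in hESC and hDE and means of 9.65 CPM in hAFE and 6.61 CPM in hPFE. Its libraries were 1.16 and 1.53 fold apart in those later stages. VTCN1 had means of 0.288 CPM in hESC and 1.3 CPM in hPFE. Both ELF5 and VTCN1 were among the genes higher in hPFE than in hESC. ISL1 and TBX3 of this list are also expressed in pharyngeal endoderm. The part of these genes' cells in the KRT7 level was not tested.

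The basal keratins were close to absent. KRT14 had 0 counts in all 8 libraries, which allows up to 3 counts or 0.0253 CPM over them. KRT5 had 1 count in all, in hPFE replicate 2. The basal pair was thus not detectable at this depth in any stage, while KRT8 stood at 189 CPM or more in every library. KRT17, a type I keratin of basal cells, appendages and injured epithelium, had 4 and 6 counts in hESC, 5 and 5 in hDE, 2 and 2 in hAFE, and 2 and 0 in hPFE. It was too low to test, and the ratio of counts in hPFE against hESC was 0.226 with an interval of 0.0241 to 1.06. Every hAFE and hPFE library was below every hESC and hDE library by a few counts. Its 8 annotated pseudogenes held 23 and 11 counts in hDE, against 4 and 0 in hESC, and with these added to KRT17 the sum was higher in hDE (log2 fold change 2.12, adjusted p = 0.0187).

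KRT15, a type I keratin of basal and progenitor cells, was the only basal keratin to pass the filter, at a low level. It had 2 and 1 counts in hESC, 5 and 13 in hDE, 37 and 17 in hAFE, and 41 and 31 in hPFE. In CPM it rose to 2.49 and 2.24 in hPFE, against 0.12 and 0.0565 in hESC, and the hAFE and hPFE libraries overlapped. KRT15 was higher than hESC in hDE (log2 fold change 2.89, SE 0.75, adjusted p = 0.0175), in hAFE (4.28, SE 0.695, adjusted p = 0.00305) and in hPFE (4.63, SE 0.689, adjusted p = 0.00175). With 3 counts in hESC, the ratios of counts were 8.23 (interval 2.4 to 43.6), 21.5 (6.96 to 107) and 27.2 (8.93 to 135). It was also higher in hPFE than in hDE (1.74, SE 0.544, adjusted p = 0.0418), a call lost in DESeq2 (adjusted p = 0.12), with a term for the replicate number (adjusted p = 0.0655) and without any hESC, hDE or hPFE library (adjusted p of 0.0713 to 0.221). The call of hDE against hESC was lost without hESC replicate 1, hESC replicate 2 or hDE replicate 2 (adjusted p = 0.0638, 0.113 and 0.123).

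The deposited effective length of KRT15 was 1175 bases in hPFE replicate 2 and 2094 bases in hAFE replicate 1, against 3570 to 5040 bases in the other 6 libraries. Its TPM was therefore 1.6 in hPFE replicate 2 and 0.36 in hPFE replicate 1 although the counts were 31 and 41. Levels of KRT15 in TPM depend on which of its 9 transcripts, 470 to 5237 bases long, the reads were assigned to. On log2(TPM + 1) its rises over hESC in hDE and in hAFE did not pass (limma adjusted p = 0.927 and 0.263).

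KRT23, a type I keratin of less settled role that is induced in some epithelial cells, had counts almost only in hPFE. It had 0 and 0 counts in hESC, 1 and 0 in hDE, 0 and 0 in hAFE, and 17 and 2 in hPFE. The 2 hPFE libraries differed 7.15 fold. Set against 3 counts over the 2 libraries for a stage at 0, KRT23 was at least 7.17-fold higher in hPFE than in hESC and at least 6.02-fold higher than in hAFE. It did not pass the count filter, and with no filter it was called in hPFE against hESC (edgeR adjusted p = 0.00315).

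TP63 was close to absent in the first 2 stages and detected in every library of the last 2. It had 1 and 0 counts in hESC, 0 and 1 in hDE, 20 and 106 in hAFE, and 239 and 570 in hPFE. In CPM these were 1.32 and 7.75 in hAFE and 14.5 and 41.1 in hPFE, with every library of the earlier stages at or below 0.0724. All hAFE libraries lay above all hESC and hDE libraries, and all hPFE libraries above all hAFE libraries, while the 2 libraries of hAFE were 5.86 fold apart and those of hPFE 2.83 fold. TP63 was higher in hAFE than in hDE (log2 fold change 6.55, SE 1.47, adjusted p = 0.0132, ratio of counts 110 with an interval of 19.3 to 4360) and than in hESC (6.91, SE 1.43, adjusted p = 0.00814, ratio 150, interval 26.5 to 5978). It was higher in hPFE than in hDE (9.17, SE 1.37, adjusted p = 0.0021, ratio 668, interval 120 to 26412) and than in hESC (9.53, SE 1.35, adjusted p = 0.00145, ratio 916, interval 164 to 36218), and both hPFE calls held under all 19 alternatives.

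From hAFE to hPFE TP63 stood 6.1 fold higher by counts, which did not pass (2.62, SE 0.796, adjusted p = 0.0867). It passed in DESeq2 (adjusted p = 0.0075), with a term for the replicate number (adjusted p = 0.0185) and without hAFE replicate 2 (4.38, adjusted p = 0.0198), and stood at 1.67 without hPFE replicate 2 and at 1.83 without hAFE replicate 1. On log2(TPM + 1) the hAFE differences were 0.67 each and did not pass in limma against hDE (adjusted p = 0.281, and 0.484 with no filter) or against hESC (adjusted p = 0.335 and 0.511). The hAFE calls rested on 1 count in the earlier stage and were lost without either hDE library (adjusted p = 0.0896 and 0.0823) or either hESC library (adjusted p = 0.0504 and 0.0679). Without hAFE replicate 2 the rise over hDE was 4.79 and that over hESC 5.15. In TPM TP63 reached 2.13 and 8.58 in hPFE, where KRT8 had 285 and 546. Its deposited effective length was 3720 to 4477 bases in the hAFE and hPFE libraries, among transcripts of 546 to 4909 bases.

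TP73, a close relative of TP63, fell to 0.445 and 0.362 CPM in hDE, against 1.86 and 1.53 CPM in hESC (log2 fold change -2.05, adjusted p = 0.00676). It was higher in hAFE than in hDE (2.47, adjusted p = 0.00407), at 2.18 and 2.34 CPM in hAFE. Both TP63 and TP73 were higher in hPFE than in hDE.

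By the rule for likeness (highest Pearson correlation of log2 CPM among 14467 protein-coding genes over the 8 libraries), TP63 was most like FOXE1, a forkhead factor gene of thyroid and pharyngeal endoderm, at 0.992. FOXE1 had 0.991 and 4.97 CPM in hAFE and 26.2 and 67 CPM in hPFE, against at most 0.0724 CPM in the 4 earlier libraries. Its replicates were in the same order as those of TP63, which a choice by correlation over these same libraries favours. FAM172A (0.99) and ZNF224 (0.988) followed at far smaller ranges, with ZNF224 at 14.5 to 31.7 CPM over the 8 libraries. KRT8 was most like PCSK6 (0.991), a proprotein convertase gene, KRT18 most like DYNC1I2 (0.973), KRT19 most like AL121722.1 (0.993) and KRT7 most like ASCC3 (0.99). These are descriptions over libraries that share stage and origin, chosen from many genes. Among the members themselves, KRT8 correlated with KRT19 at 0.951 and with KRT18 at 0.946, but with KRT7 at -0.268.

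The other keratin genes were mostly silent. Of 46 listed, 40 had 0 counts in hESC, and the number at 0 was 34 for hDE, 41 for hAFE and 34 for hPFE, and only KRT4, KRT10 and KRT222 passed the filter. KRT10, a type I keratin of suprabasal epidermis, was at 3.66 to 7.65 CPM in every library and passed in no comparison. KRT4, a type II keratin of the lining of mouth and oesophagus, had 0 counts in the hESC and hDE libraries, 212 and 0 in hAFE, and 105 and 49 in hPFE. The 2 hAFE libraries went apart completely, and no KRT4 comparison passed (adjusted p = 0.0652 in hPFE against hESC). KRT222 was lower in hAFE than in hESC (log2 fold change -3.85, adjusted p = 0.0229). Of 13 genes of cornified or stratified differentiation, 3 were tested, and LOR, SPRR1A and KLK5 were among those at 0 in hAFE and hPFE. Against hESC, TGM1 was higher and KLK7 lower in hAFE, where 19.2% and 20.6% of all genes were. In hPFE none was higher and KLK7 and CNFN were lower than in hESC, where 21.6% and 23.3% of all genes were. SPRR3, left out by the filter, had 20 counts in hPFE (libraries 22.6 fold apart), 1 in hAFE, 9 in hDE and 0 in hESC. The list summed to 1.4 and 3.17 CPM in hPFE, against 4.57 and 4.18 CPM in hESC. Most of the hESC sum was CNFN, KLK7 and KLK5 (means of 1.55, 1.26 and 0.924 CPM).

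Desmosomes anchor keratin filaments at cell contacts, and 10 of their 16 listed genes, plakins included, were tested. In hDE against hESC 5 were higher and DSC3 was lower, where 20.3% and 21.6% of all genes were. In hAFE against hDE 3 were higher and PERP was lower, where 15.0% and 15.2% of all genes were. In hPFE against hAFE 3 were higher (DSC3, PPL and PERP), where 4.77% of all genes were, and the calls of PPL and PERP were lost under 7 and 12 of the 19 alternatives. In hPFE against hESC 7 were higher and none lower, where 21.6% and 23.3% of all genes were, with a median log2 fold change of 1.61 over the 10, against 0.02 over all genes. PKP2, a plakophilin that links desmosomal cadherins to desmoplakin, stood at 265 and 363 CPM in hPFE, against 30.5 and 30.1 CPM in hESC (3.37, adjusted p = 4.09e-05). DSP, desmoplakin, which binds keratin directly, stood at 612 and 724 CPM in hPFE, against 140 and 122 CPM in hESC (2.35, adjusted p = 9.93e-05). DSG2 and PKP4 did not pass in that comparison (0.59 and 0.24).

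DSC3, a desmosomal cadherin most abundant in basal layers, traced a course like that of KRT7. It was at 10.8 and 8.71 CPM in hESC, 0.267 and 0.435 CPM in hDE, 2.64 and 4.75 CPM in hAFE, and 36.7 and 41.4 CPM in hPFE. No stages overlapped, and the 2 libraries of a stage were at most 1.8 fold apart. DSC3 fell in hDE against hESC (log2 fold change -4.73, adjusted p = 0.000177) and rose in hAFE against hDE (3.33, adjusted p = 0.00123) and again in hPFE against hAFE (3.40, adjusted p = 0.00233). DSG3, its usual basal partner, was left out by the filter, with 0.121 and 3.9 CPM in hPFE.

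Of 10 hemidesmosome and basal adhesion genes 9 were tested. In hPFE against hESC 8 were higher and ITGA6 was lower, where 21.6% and 23.3% of all genes were, with a median of 1.60, against 0.02 over all genes. In hPFE against hAFE 3 were higher and COL7A1 was lower, where 4.77% and 2.71% of all genes were, and the calls of COL17A1, ITGB4 and COL7A1 were lost under 9, 13 and 10 of the 19 alternatives. COL17A1, the transmembrane collagen of hemidesmosomes, stood at 3.1 and 22.2 CPM in hPFE, against 0.396 and 0.219 CPM in hAFE (log2 fold change 5.30, adjusted p = 0.0236), with replicate 2 the higher as for TP63 and KRT7. ITGB4, the integrin subunit particular to hemidesmosomes, stood at 11.2 and 9.09 CPM in hPFE, against 3.57 and 4.53 CPM in hAFE (1.32, adjusted p = 0.0492), while its partner ITGA6 was lower in hPFE than in hESC (-2.29, adjusted p = 0.000592).

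**Figure D4:**
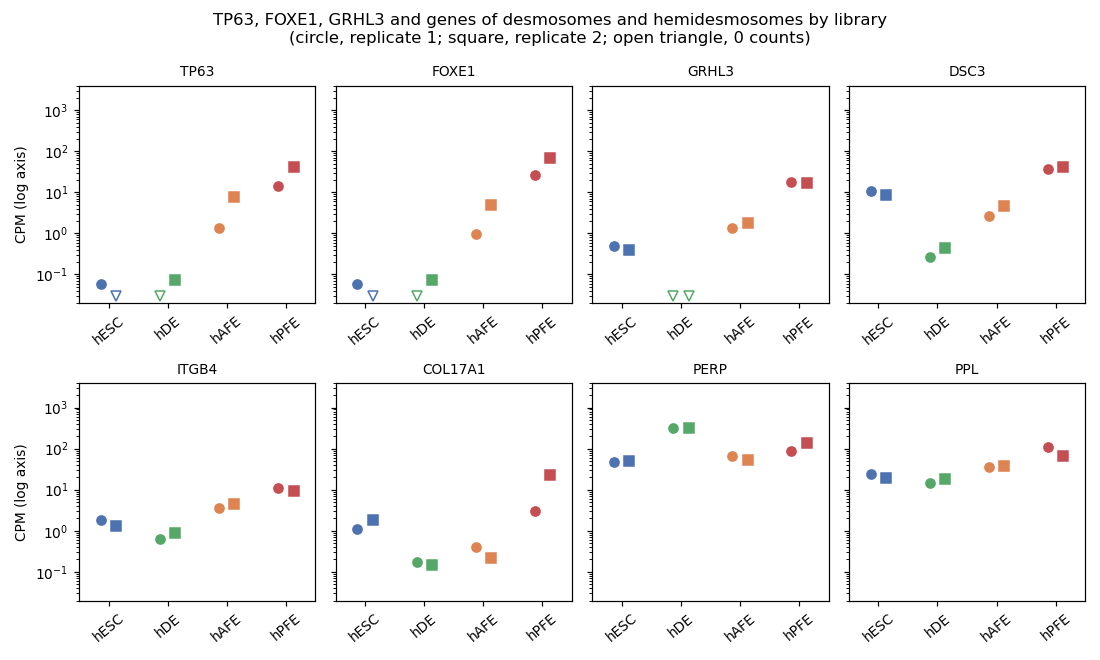
Level in CPM on a log axis in the 8 libraries by stage for TP63, FOXE1, GRHL3 and 5 genes of desmosomes and hemidesmosomes (circles replicate 1, squares replicate 2, open triangles 0 counts). All 8 genes drawn are higher in both hPFE libraries than in both hAFE libraries, and GRHL3 is at 0 in both hDE libraries. The 5 adhesion genes drawn are ones called higher in hPFE against hAFE. In that comparison 7 of the 10 desmosome genes tested and 5 of the 9 hemidesmosome genes tested were not called, and COL7A1 was lower.

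Regulators of epithelial identity were counted beside TP63. Of 13 tested, 8 were higher in hPFE than in hESC and none lower, where 21.6% and 23.3% of all genes were. In hAFE against hDE 5 were higher and KLF5 was lower, where 15.0% and 15.2% of all genes were. GRHL3, a grainyhead factor of surface epithelia, had 0 counts in hDE and stood at 18.2 and 17 CPM in hPFE, against 1.32 and 1.83 CPM in hAFE (log2 fold change 3.48, adjusted p = 0.0039). GRHL2 stood at 93.5 and 84.4 CPM in hAFE, against 5.07 and 4.92 CPM in hDE (4.15, adjusted p = 3.29e-05). CDH1, E-cadherin, stood at 27.1 and 28 CPM in hDE, against 244 and 240 CPM in hESC (-3.14, adjusted p = 4.75e-05), at the step where KRT8, KRT18 and KRT19 rose. ESRP1, an epithelial splicing factor, did not pass in any comparison.

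Among 9 surface and matrix genes of airway and oesophageal basal cells, 7 were tested, and 6 were higher in hPFE than in hDE, where 16.6% of all genes were. In hPFE against hESC 2 were higher and 2 lower, where 21.6% and 23.3% of all genes were. PDPN, a mucin-like surface protein, was at 48.2 and 46.3 CPM in hESC, 3.12 and 3.91 in hDE, 16.9 and 17.8 in hAFE, and 32.2 and 29.9 in hPFE. NGFR, a receptor used to sort basal cells, did not pass between hPFE and hESC (-1.05) and its hPFE libraries were at 5.95 and 0.794 CPM. Of 11 surface and placodal ectoderm genes 8 were tested, and 7 of them were higher in hPFE than in hESC, where 21.6% of all genes were. TFAP2A, a factor of surface ectoderm, was at 0.971 and 0.722 CPM in hPFE, TFAP2B was at 0, and the list summed to 51 and 65.3 CPM in hPFE, against 47.3 and 132 CPM in hAFE. EYA1 of that list is also a pharyngeal gene. The part of ectoderm in the TP63 level was not tested.

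Of 13 tested intermediate filament genes outside the keratins, 3 were higher in hPFE than in hESC (VIM, SYNM and SYNC), near the 21.6% of all genes that were. VIM, vimentin, the filament of mesenchymal cells, was at 114 and 102 CPM in hESC, 481 and 558 CPM in hDE, 229 and 66.5 CPM in hAFE, and 1125 and 524 CPM in hPFE. The 11 mesothelial and mesenchymal genes summed to 1484 and 165 CPM in hPFE, against 43.2 and 28.7 CPM in hAFE, and COL3A1 alone gave 1232 and 29.7 CPM of the hPFE sums. The library with more mesenchymal RNA, hPFE replicate 1, was the lower of the 2 in KRT7, TP63, KRT8 and KRT18, close to the other in KRT19 (235 against 243 CPM) and KRT15 (2.49 against 2.24 CPM), and the higher in KRT23, with KRT17 at 2 counts against 0. The 6 neural genes summed to 106 to 149 CPM in hPFE and the 6 endothelial and blood genes to 2.79 to 7.07 CPM, with PTPRC at 0. The part of mesenchymal cells in the levels of the keratins and TP63 was not tested.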

How the data were processed

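RNA from 8 libraries of the H1 line, 2 at each of 4 stages, was sequenced as total RNA after removal of ribosomal RNA, strand-specific and paired-end, per the labels' protocols. The authors deposited 1 gene table per library with expected counts, TPM and posterior standard deviations of the count, per the file headers. The submitters' processing notes name RSEM, DESeq2 and hg38; the sources used here give neither the aligner nor the strand setting. Expected counts split reads that match several genes by estimation, so genes with near-identical copies depend on that split. TPM sums to a fixed total in each deposited library and therefore moves with the share of small structural and mitochondrial RNAs.

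Here the deposited expected counts were rounded and tested with edgeR 4.0.16 in R 4.3.3 (filterByExpr, TMM scaling, quasi-likelihood F-test, Benjamini-Hochberg adjustment over 17446 genes, threshold 0.05). A single fit to all 8 libraries with a term per stage had 4 residual degrees of freedom and gave 6 comparisons. The SE of a log2 fold change was its size over the square root of F. Where a stage had 1 to 3 counts, the ratio of summed counts is given with an exact 95% interval, and a stage at 0 was set to 3 counts over its 2 libraries; both cover counting error only. The 746 rows that matched no gene held 0 counts and were left out. The 2 libraries of every stage differed by more than sampling noise, and same-numbered libraries did not deviate together (correlations of -0.051 to 0.0556).

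Results were recomputed with DESeq2 1.42.0, with RLE scaling, without a filter on counts, with a filter of 1 CPM or more in 2 libraries, with fits restricted to the 4 libraries of a comparison, with a replicate block, with limma 3.58.1 on log2(TPM + 1) or log2(TPM + 0.1), after removal of small structural and mitochondrial RNA genes, with pseudogenes added to their parents, and with each library left out. The scripts were tested on simulated data. All 10 genes are described. From the lists, the rule named per comparison up to 3 called genes with the largest change at 1 TPM or more and up to 2 genes not called with the highest TPM; further list genes were named after their values were seen. Genes like a member were the 3 with the highest correlation of log2 CPM (prior count 2). The genes, lists and tests were chosen with earlier results of these data known, so they are not independent of them. A few list genes and a sequence are not reported here.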

Additional observations from a re-analysis of the deposited data

How the results depend on the processing

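Of 682 alternative values of single genes, 571 kept direction and side of the threshold, 58 lost the call, 28 gained it and 25 had the other sign. No value with the other sign belonged to a comparison called with all libraries. On the 3 TPM settings these were KRT8 (0.05 in hAFE against hDE, 0.52 in hPFE against hDE), KRT18 (0.08 and 0.85) and KRT19 in hPFE against hDE (0.96, 0.97 and 0.96), and TP63 in hDE against hESC stood at 0.00. With 1 library left out, TP63 in hDE against hESC ran from -2.17 to 2.49, KRT19 in hAFE against hDE from -0.38 to 0.53, KRT18 in hPFE against hDE from -0.68 to 0.04, and in hPFE against hAFE KRT8 ran from -0.44 to 0.87, KRT15 from -0.06 to 0.92 and KRT19 from -0.73 to 0.18. On limma with log2(TPM + 1), log2(TPM + 0.1) or log2(TPM + 1) without a filter, the genes called that moved by over 1.5 times were 4517 in hDE against hESC (no filter), 8366 in hAFE against hDE (0.1), 812, 805 and 411 in hPFE against hAFE, 4290 and 3328 in hAFE against hESC (1 and no filter), and 10284, 10867 and 8806 in hPFE against hDE. In hPFE against hAFE, 3234 genes were called with no count filter and 52 with only the 4 libraries compared. The main counts were 7304, 5267, 1306, 6938, 7842 and 5867 in the order hDE against hESC, hAFE against hDE, hPFE against hAFE, hAFE against hESC, hPFE against hESC and hPFE against hDE. Of the 10 genes, those called on the 3 TPM settings were 2, 3 and 2 in hDE against hESC, 3 (0.1) and 0 (no filter) in hAFE against hDE, 0, 0 and 0 in hPFE against hAFE, 2 (1) and 2 (no filter) in hAFE against hESC, and 3 (no filter) in hPFE against hESC. In hAFE against hDE 2 were called in DESeq2, 4 with no count filter and 2 with the 4 libraries alone, and in hPFE against hAFE 2, 3 and 0. Leaving out each library in turn gave 3695 to 8465, 2435 to 6363, 479 to 1552, 2899 to 8178, 3822 to 8422 and 2630 to 6468 genes in the same order, and 2 to 5, 0 to 3, 0 to 2, 3 to 5, 4 to 7 and 2 to 4 of the 10 genes. With the replicate block 6909, 4941, 1072, 6471, 7494 and 5493 genes and 5, 1, 1, 4, 6 and 2 of the 10 genes were called; since the numbers did not pair the libraries, this is no paired result, and it changed the calls of KRT7 and TP63 in hPFE against hAFE and of KRT15 in hPFE against hDE. The mean simple to basal TPM ratio was 1315 for hESC, 2508 for hDE, 1212 for hAFE and 1018 for hPFE. It became 650 without KRT18 and 17381 without KRT17 in hESC, 1205 without KRT8, 1652 without KRT18, 12885 without KRT17 and 678 with pseudogenes added in hDE, 656 without KRT8, 842 without KRT18, 931 without KRT19, 4200 without KRT15, 2046 without KRT17 and 878 with pseudogenes in hAFE, and 582 without KRT8, 670 without KRT18, 25458 without KRT15 and 1294 without KRT17 in hPFE. The mean type I to type II ratio was 1.91 for hESC, 0.911 for hDE, 1.16 for hAFE and 0.996 for hPFE. It became 0.435 without KRT18, 1.47 without KRT19, 27.9 without KRT8, 2.05 without KRT7 and 1.77 with pseudogenes in hESC, 0.264 without KRT18, 0.648 without KRT19 and 7155 without KRT8 in hDE, 0.498, 0.657 and 142 in hAFE, and 0.312, 0.684 and 17.6 in hPFE, with 1.18 without KRT7. The cause of these changes with the processing was not tested. With 2 libraries a stage the spread is poorly known, and genes with few counts in a stage, such as KRT15, KRT17 and TP63 in hESC, have wide counting intervals.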

Other observations

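Several keratin pseudogenes were detected almost only in definitive endoderm. KRT8P32, a processed copy of KRT8 at chr5:98392070-98393530 on the minus strand (hg38), had 61 and 71 counts in hDE, against 0 and 1 in hESC, and 0 in all 4 hAFE and hPFE libraries. It was higher in hDE than in hESC (log2 fold change 7.14, SE 0.787, edgeR adjusted p = 0.00141). Its neighbours on the same strand, the mitochondrial gene copies MTCO1P24 (chr5:98410235-98411792) and MTCO2P24 (chr5:98409675-98410100), were also higher in hDE than in hESC (6.66 and 7.62, edgeR adjusted p = 0.00134 and 0.00644). KRT8 itself stayed high in hAFE and hPFE, where KRT8P32 had no counts.

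On chromosome 17, KRT17P2 (chr17:18426861-18431848) had 15 and 7.92 counts in hDE, against 1 and 0 in hESC, and 0 in every later library. The adjoining KRT16P1 (chr17:18432051-18442895) had 15.54 and 19.96 counts in hDE, against 2 and 0 in hESC (4.43, edgeR adjusted p = 0.0164), and was lower in hAFE than in hDE (-4.20, edgeR adjusted p = 0.027). KRT16P3, a copy elsewhere on the chromosome, had 8.46 and 12.04 counts in hDE and 0 in hESC. These pseudogenes were chosen after their values were seen, and the counts of near-identical copies are uncertain.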
